A study of Drosophila melanogaster with 25 samples.

Results

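The core cell death genes of Drosophila melanogaster were followed by RNA sequencing of whole wing imaginal discs across 6 genotypes. The set held 9 genes, chosen by their role and matched by gene identifier to 9 of the 13955 genes measured: the inducers rpr, hid, grim and skl, the inhibitor Diap1, the adaptor Dark, the initiator caspase Dronc and the effector caspases Drice and Dcp-1. The study asked which transcripts differ in discs whose cells are out-competed by wild-type neighbours (losers) while no such neighbours are present, so the discs were of a single genotype throughout. Each sample held 50 discs of wandering third-instar larvae raised at 25 °C. Wild type (WT) was 8 libraries, 6 from yw larvae (WT1 to WT4, WT7 and WT8) and 2 from FRT82 ubi-GFP larvae (WT5 and WT6). The ribosomal protein gene RpS3 was mutated on 1 chromosome in 3 genotypes. RpS3 was FRT82B, RpS3[Plac92], ubi-GFP/+ (2 libraries), RpS3* carried FRT82B and the RpS3* allele over a wild-type chromosome (2 libraries), and RpS3+puc joined FRT82, RpS3[Plac92], ubi-GFP/+ to esg-Gal4 driving UAS-GFP and UAS-Puc (3 libraries). Puckered (Puc) is the phosphatase that switches off the JNK kinase Basket, and it was supplied only where esg-Gal4 is active, while whole discs were sequenced. The RpS3 libraries carried neither the driver nor UAS-GFP, so an effect of either cannot be told apart from an effect of puc. RpS15 was FRT42D, M(2)53[1]/+ (2 libraries), a Minute that the study used as a mutant that is not a loser. The mahj discs were homozygous for a mutation in mahjong, which encodes an adaptor of a cullin ubiquitin ligase, and carried hs-FLP, stauGFP/+ and FRT42D (2 libraries).

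Apoptosis in the fly is held in check by Diap1, a ubiquitin ligase that binds and restrains Dronc, Drice and Dcp-1. Reaper, Hid, Grim and Sickle share a short N-terminal motif with which they bind Diap1 and release the caspases, and they are the point at which many death signals enter, because JNK, p53 and the ecdysone receptor act on their transcription. Dark, the fly counterpart of Apaf-1, assembles Dronc into the apoptosome, and active Dronc then cleaves the effectors Drice and Dcp-1. Caspases are made as inactive precursors, so a transcript level of this machinery is not a measure of cell death.

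The libraries held between 12120450 and 16975225 reads, as implied by the smallest steps of their values. The targeted genes matched the labels. RpS3 itself lay between 1262 and 1366 FPKM (reads corrected for transcript length and library size) in the 7 libraries carrying an RpS3 allele against 2057 to 3023 in WT, RpS15 lay at 1008 and 1055 in the RpS15 libraries against 2611 to 4102 in WT, mahj at 17.2 in both mahj libraries against 23.4 to 29.1 in WT, and puc between 159.9 and 224.5 in RpS3+puc against 10.7 to 17.7 in WT. The 5 wing disc markers measured (nub, vg, rn, dpp and en) were present in every library, with a summed level of 257.3 to 283.1 FPKM in WT and 205.5 to 262.1 in RpS3+puc. Fat body markers (Fbp1, Fbp2, Lsp1alpha and Lsp2) varied far more, and their sum was highest in 1 mahj library (639.8 FPKM) and 1 RpS15 library (580.7), lay between 23.6 and 262.0 in WT and was lowest in RpS3+puc (2.44 to 6.01). In whole discs, fewer cells that transcribe a gene and less transcript in each cell cannot be told apart.

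The inducers occupy 1 stretch of chromosome arm 3L. In the BDGP6.54 annotation, hid (FBgn0003997) spans 18167745 to 18185641, grim (FBgn0015946) 18302719 to 18304417, rpr (FBgn0011706) 18397535 to 18398435 and skl (FBgn0036786) 18438561 to 18439942. All lie on the minus strand within 272.2 kb, with gaps of 117.1, 93.1 and 40.1 kb between neighbours. Of 18 annotated genes in this interval 8 were measured, and only hid and rpr reached a WT mean of 1 FPKM. Diap1 (FBgn0260635, 16038410 to 16051034) and Dronc (FBgn0026404, 9968479 to 9971002) lie on the same arm, Drice (FBgn0019972, 29799658 to 29801584) on 3R, and Dark (FBgn0263864, 17020027 to 17026703) and Dcp-1 (FBgn0010501, 23551313 to 23553547) on 2R.

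In WT discs the inhibitor was the most abundant transcript of the set. FPKM is a level per transcript length, so genes can be set side by side on it. Diap1 stood at 205.5 ± 10.8 FPKM (SD, n = 8), above 95.1% of the 7795 genes with a WT mean of at least 1 FPKM. The caspases followed, with Drice at 62.0 ± 4.11, Dcp-1 at 58.2 ± 3.53 and Dronc at 51.7 ± 5.62 FPKM (SD, n = 8). The inducers and the adaptor were lower, with hid at 40.6 ± 8.99, rpr at 20.7 ± 3.59 and Dark at 16.2 ± 1.23 FPKM (SD, n = 8), and Dark stood above only 37.5% of those genes. Between the WT stocks, FRT82 ubi-GFP and yw, 0 of the 7 members tested differed by limma at an adjusted p under 0.1, where 0.815% of all genes did. An unadjusted p under 0.05 was reached by 0 members, a threshold for which no share of all genes is given here. The estimate for hid was -0.34 on the log2 scale (SE 0.23, adjusted p = 0.68), lower in FRT82 ubi-GFP, and rests on 2 libraries of that stock.

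The other inducers were hardly transcribed. In all 19 libraries together grim had 9 reads and skl 20, against 6643 for rpr. No grim read was seen in 13 libraries and no skl read in 5, and the highest values were 0.111 FPKM for grim (3 reads, in 1 RpS3+puc library) and 0.182 FPKM for skl (4 reads, in 1 RpS15 library). A count of 0 allows up to 3 reads, which is as many as grim had in any library, so no difference in grim was detectable at this depth. Neither gene passed the filter for a test. The grim exon also shares 749 bases with an annotated antisense RNA and 541 with a non-coding RNA on its own strand, and their reads cannot be told apart from its own.

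Among the transcribed members rpr varied most and the effector Dcp-1 least. The ratio of the highest to the lowest of the 19 libraries was 3.61 for rpr, 2.46 for hid, 1.75 for Dronc, 1.68 for Dark, 1.39 for Drice, 1.38 for Diap1 and 1.34 for Dcp-1. In WT alone hid had the widest spread, with a coefficient of variation of 22.2% against 17.3% for rpr and 5.28% for Diap1. Counting error was a small part of this for rpr, since its libraries held 160 to 677 reads, which gives a counting error of 3.84% to 7.91%.

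The level of rpr differed most between genotypes. In WT it ran from 14.6 to 25.3 FPKM with a median of 21.5. The RpS3 libraries stood at 26.6 and 24.8 FPKM, 1 above and 1 inside the WT range, and the RpS15 libraries at 23.1 and 24.4, inside it. The RpS3* libraries stood at 35.6 and 42.1 FPKM and the mahj libraries at 49.5 and 31.9, all above every WT library. The RpS3+puc libraries stood at 13.8, 13.7 and 16.5 FPKM, below both RpS3 libraries and overlapping the lowest WT library.

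**Figure D1:**
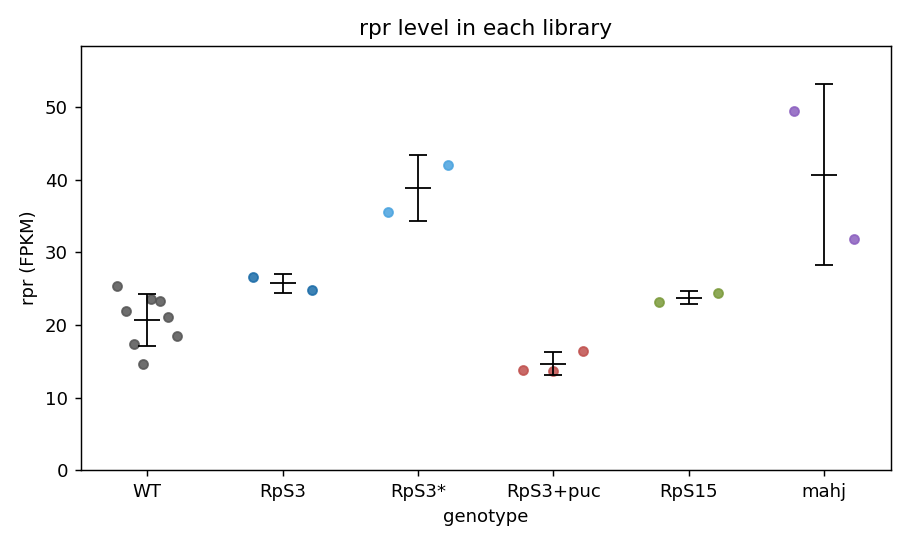
Level of rpr in FPKM (vertical axis) for each of the 19 libraries by genotype (horizontal axis). Points are libraries, and the bars are the group mean ± SD. The RpS3* and mahj libraries sit above all WT libraries (highest WT 25.3 FPKM), and the 3 RpS3+puc libraries lie at 13.7 to 16.5 FPKM.

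Each mutant was compared with WT by limma on log2(FPKM + 1), fitted over all genes that reached 1 FPKM in 2 or more libraries of the comparison. A gene was called at a Benjamini-Hochberg adjusted p under 0.1 over all genes tested. Every comparison with WT, that of RpS3+puc included, shares the 8 WT libraries. No label says that samples came from separate cultures, so p-values measure only the spread between these samples.

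In RpS3 discs 0 of the 7 members tested were called, where 18.6% of all genes were. Only Dronc had an unadjusted p under 0.05, a threshold for which no share of all genes is given here. The rpr estimate was +0.32 on the log2 scale (SE 0.16, adjusted p = 0.21), with a 95% interval from -0.04 to 0.67. Over 21 alternatives it ran from 0.098 to 0.38 and was never called. The lowest value came once the trend of each library along transcript length was removed (adjusted p = 0.75). Against the FRT82 ubi-GFP WT libraries alone it was 0.13 (adjusted p = 0.43). Dronc and Dark came closest among the others. Dronc stood at 59.9 and 64.3 FPKM against a WT range of 41.2 to 57.6, a log2 difference of 0.27 (SE 0.12, adjusted p = 0.16), and Dark at 18.3 in both libraries against 13.4 to 17.5, a log2 difference of 0.17 (adjusted p = 0.24). Both genes had no overlap between RpS3 and WT, as did 25.1% of all genes tested. The inducer hid lay at 36.6 and 39.3 FPKM, inside a WT range of 23.4 to 48.5.

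In RpS3* discs 1 of 7 members was called, rpr, where 22.8% of all genes were called. The log2 difference from WT was 0.89 (SE 0.17, adjusted p = 0.0040), a 1.85-fold higher level seen in 2 of 2 libraries. It did not overlap WT, as was so for 25.4% of all genes tested. With only RpS3* replicate 1 on the mutant side, which is then assumed to vary like WT, the estimate was 0.77 and the call was lost (adjusted p = 0.13). The other members stayed within 0.29 of WT on the log2 scale. Dronc had the largest of these estimates (0.29, SE 0.13, adjusted p = 0.15), and its libraries stood far apart, at 72.0 and 55.4 FPKM. The same libraries were also split for Diap1, at 237.6 and 185.9 FPKM.

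The alleles of RpS3 were set against each other in a fit of all 19 libraries. The rpr difference of RpS3* from RpS3 was 0.57 on the log2 scale, with a 95% interval from 0.13 to 1.02 and an unadjusted p of 0.014, but an adjusted p of 0.41. Only 0.821% of all genes were called between these alleles. A higher rpr level in RpS3* than in RpS3 was therefore not called, although the interval leaves room for a difference of up to 1.02.

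In RpS15 discs 1 of 7 members was called, the adaptor Dark, where 21.1% of all genes were called. Dark stood at 22.6 and 21.3 FPKM, above the whole WT range of 13.4 to 17.5, a log2 difference of 0.42 (SE 0.093, adjusted p = 0.015), where 30.1% of all genes did not overlap. The estimate was 0.22 (adjusted p = 0.064) once the trend of each library along transcript length was removed, and the call was lost without either RpS15 library (adjusted p up to 0.19). Dark has the longest transcripts of the set, up to 4883 bases, and shares 2779 exon bases with an antisense RNA. The sources used here do not say whether reads were counted by strand, so reads of the antisense RNA and of Dark cannot be told apart. The rpr estimate was 0.21 (SE 0.16, adjusted p = 0.41), with a 95% interval from -0.15 to 0.56.

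In mahj discs 2 of 7 members were called, rpr higher and Drice lower, where 16% of all genes were called. The rpr difference was 0.93 on the log2 scale (SE 0.19, adjusted p = 0.0069), a 1.90-fold higher level in 2 of 2 libraries. Its size rested on mahj replicate 1, without which it was 0.62 (adjusted p = 0.28). It was also lost against WT1 and WT2 alone, the WT libraries sequenced in 2 runs as the mahj libraries were (0.73, adjusted p = 0.11). The effector caspase Drice lay at 49.7 and 50.9 FPKM, below the WT range of 54.9 to 66.7, a log2 difference of -0.29 (SE 0.088, adjusted p = 0.051). This call too was lost without either mahj library (-0.27 and -0.31). It was also lost against the FRT82 ubi-GFP WT libraries alone (-0.18, adjusted p = 0.40).

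The inducer hid was at 56.6 and 57.5 FPKM in mahj discs, higher than in any other library of the series. The log2 difference was 0.52 (SE 0.23, adjusted p = 0.19), not called in this comparison. Dark lay at 19.3 in both mahj libraries, also above WT (0.24, adjusted p = 0.12). In the fit of all 19 libraries hid and Dark were called higher (adjusted p = 0.093 and 0.070) and Dcp-1 lower (-0.18, adjusted p = 0.089), where 22.7% of all genes were called. Of 22 alternative settings of that fit, the hid call was lost in 13, the Dcp-1 call in 12 and the Dark call in 2. In all, 4 of the 7 members tested had no overlap between mahj and WT, against 22.5% of all genes. The lowest WT values of hid were those of WT6 and WT7, at 23.4 and 31.0 FPKM.

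Markers of other tissues differed between the mahj libraries. Replicate 1, with rpr at 49.5 FPKM, had summed fat body markers of 639.8 FPKM and summed haemocyte markers (Hml, NimC1, He and Pxn) of 12.5, while replicate 2, with rpr at 31.9, had 41.6 and 6.34. All 4 markers of each list were above 0 in both libraries. The sums of larval muscle (Mhc, Act57B and Mlc2) and disc myoblast markers (twi, Him, zfh1 and htl) went the other way. They were 40.7 and 39.2 FPKM in replicate 1 and 53.9 and 46.8 in replicate 2. The RpS15 library with a fat body sum of 580.7 FPKM had rpr at 24.4, and the RpS3* libraries, where rpr was 35.6 and 42.1, had fat body sums of 15.3 and 10.99 and haemocyte sums of 1.34 and 1.11. The part of these tissues in the rpr level of mahj replicate 1 was not tested.

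**Figure D2:**
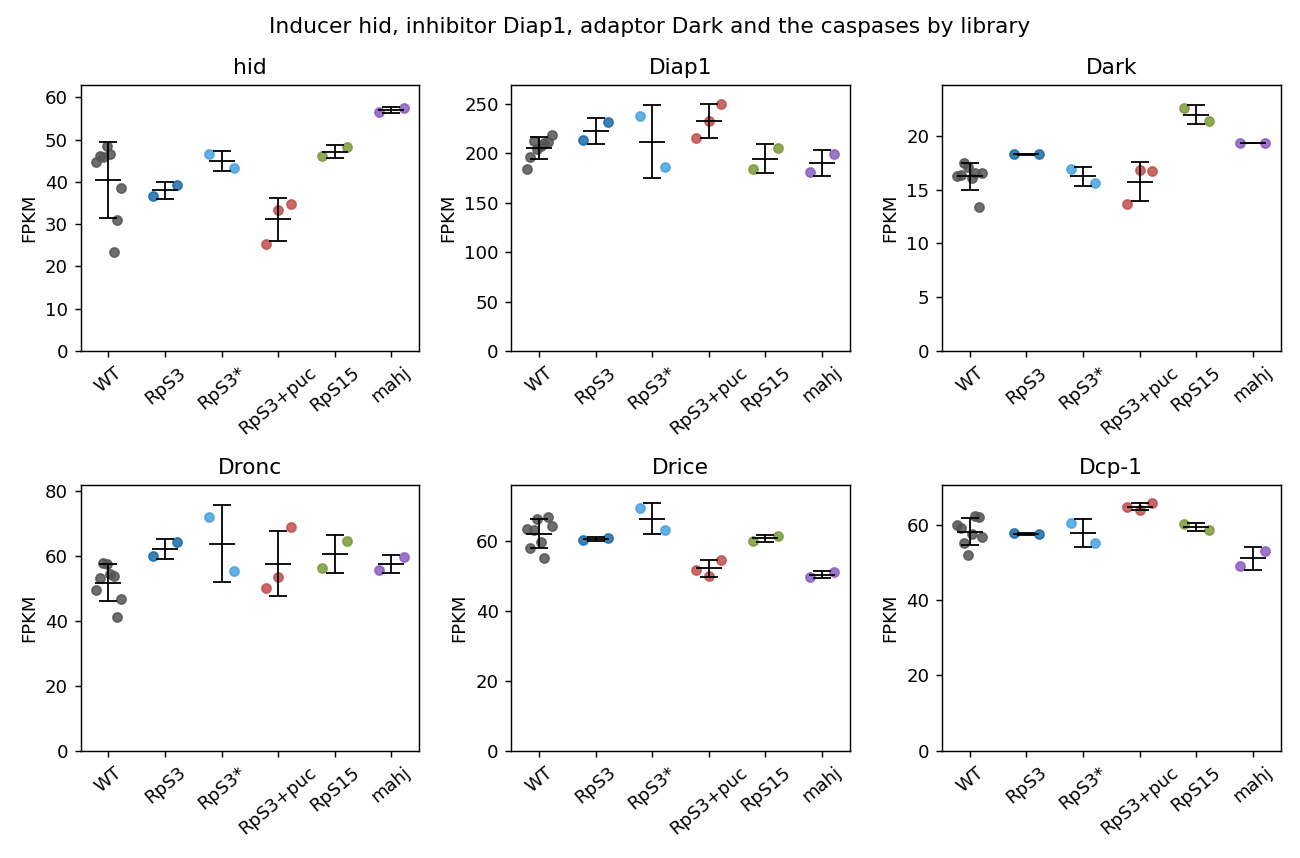
Levels in FPKM (vertical axes, from 0) of the other 6 members that were transcribed, by genotype. Points are libraries, and bars are the mean ± SD. The mahj libraries are highest for hid (56.6 and 57.5 FPKM) and the RpS15 libraries for Dark (22.6 and 21.3), while Diap1 stays between 181.0 and 250.1 FPKM in all libraries.

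In discs that carried puc in addition to the RpS3 allele, rpr was lower than in RpS3. In RpS3+puc against RpS3, 3 of 7 members were called, rpr and Drice lower and Dcp-1 higher, where 46.6% of all genes were called. The rpr libraries stood at 13.8, 13.7 and 16.5 FPKM against 26.6 and 24.8, a log2 difference of -0.77 (SE 0.099, adjusted p = 0.0017) seen in 3 of 3 libraries, to 0.58 of the RpS3 level. The call held under all 12 alternatives tried for this comparison, over which the estimate ran from -0.98 to -0.73. Drice lay at 51.7, 49.8 and 54.6 FPKM against 60.1 and 60.8 (-0.21, SE 0.071, adjusted p = 0.045). Dcp-1, its fellow effector, lay at 64.7, 63.9 and 65.8 FPKM against 57.9 and 57.5 (0.17, SE 0.066, adjusted p = 0.079). Dcp-1 shares 239 exon bases with pita, a gene on the opposite strand, and Diap1 shares 347 with an antisense RNA. Whether reads were counted by strand is not known, so reads of those stretches cannot be told apart. Without either RpS3 library rpr alone was called.

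The remaining inducer hid was at 25.4, 33.3 and 34.8 FPKM in RpS3+puc, below both RpS3 libraries (36.6 and 39.3), with a log2 difference of -0.29 (SE 0.13, adjusted p = 0.11). Dark had no overlap either (-0.21, adjusted p = 0.14). Of the 7 members 5 did not overlap between these genotypes, as was so for 64.3% of all genes. Diap1 (0.06, adjusted p = 0.59) and Dronc (-0.12, adjusted p = 0.48) overlapped.

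Against WT, the RpS3+puc discs had 4 of 7 members called, where 62.3% of all genes were called. Lower were rpr (-0.46, SE 0.14, adjusted p = 0.013) and Drice (-0.25, SE 0.075, adjusted p = 0.014), and higher were Diap1 (0.18, SE 0.075, adjusted p = 0.059) and Dcp-1 (0.15, SE 0.071, adjusted p = 0.078). The rpr call held under all 22 alternatives tried, although the highest RpS3+puc library (16.5 FPKM) overlapped the lowest WT library (14.6). Only Drice and Dcp-1 did not overlap WT, against 39.6% of all genes. The Diap1 and Dcp-1 calls were lost when values were rescaled by the median of ratios (0.10 and 0.08). Against the FRT82 ubi-GFP WT libraries alone only rpr was called, and the Drice call was lost (-0.14, adjusted p = 0.33).

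Values in RpS3+puc moved with transcript length. The slope of a library's deviation along log2 transcript length was -0.29 to -0.15 in RpS3+puc, -0.09 to 0.09 in WT and 0.17 to 0.19 in RpS15. The trend along length was removed as a smooth curve rather than as this straight slope. Then rpr, whose single transcript of 901 bases is the shortest of the set, was further below WT (-0.89, adjusted p = 0.0012). Dark then stood above WT (0.25, adjusted p = 0.0046) and Dcp-1 was level with it (-0.03, adjusted p = 0.72), against -0.05 and 0.15 without this step. The fat body sum of the 3 RpS3+puc libraries (2.44 to 6.01 FPKM) was also below that of every other library. Their larval muscle sum (Mhc, Act57B and Mlc2, 21.2 to 34.9 FPKM) was below that of every WT (36.4 to 57.5) and RpS3 library (50.0 and 52.4), as was that of RpS15 (25.6 and 31.2). Only for transcript length were the calls refitted, and the part of these marker sums in them was not tested.

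**Figure D3:**
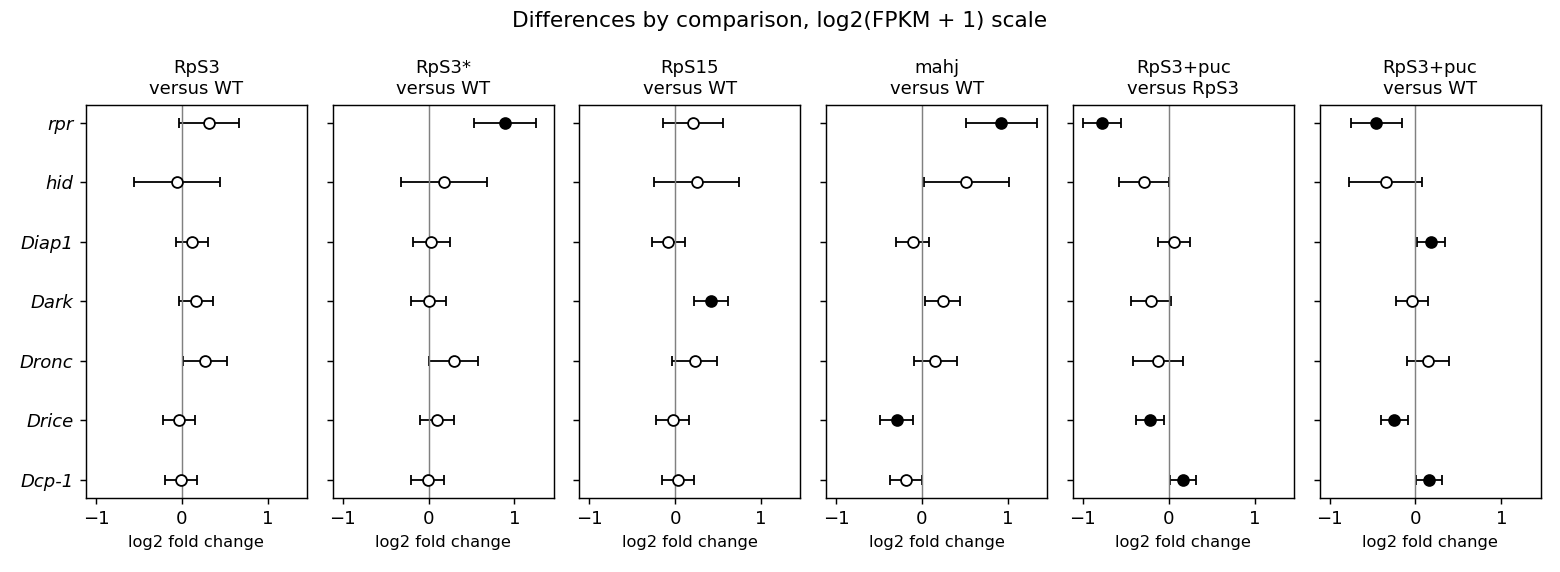
Log2 fold change (horizontal axes, on the log2(FPKM + 1) scale) of the 7 members tested in each of the 6 comparisons. Circles are estimates with 95% intervals from limma, filled where the adjusted p is under 0.1. The filled circles for rpr lie at 0.89 in RpS3* and 0.93 in mahj against WT, and at -0.77 and -0.46 in RpS3+puc against RpS3 and WT.

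A fit of all 19 libraries gave the 15 differences between pairs of genotypes. Over the 7 members 35 of 105 differences were called, where the share of all genes called ran from 0.821% to 68.3% between pairs. That share was 28.4% for RpS3, 32.1% for RpS3*, 31.9% for RpS15, 22.7% for mahj and 65% for RpS3+puc against WT. It was 28.6%, 20.1%, 68.3% and 56.7% for RpS3+puc against RpS3, RpS3*, RpS15 and mahj, and 47.3% for RpS15 and 17.1% for mahj against RpS3. Against RpS3* it was 50.8% for RpS15 and 22.7% for mahj, and between mahj and RpS15 it was 28.6%. rpr was called in 10 of its 15 pairs, Drice in 8, Dark in 6, hid and Dcp-1 in 4 each, Diap1 in 3 and the initiator Dronc in 0. Many of these pairs share a genotype, and they are not independent.

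The order of mean rpr was mahj (40.7 FPKM), RpS3* (38.9), RpS3 (25.7), RpS15 (23.8), WT (20.7) and RpS3+puc (14.7). Of the neighbours in this order only WT and RpS3+puc differed (adjusted p = 0.011). Further apart in the order, rpr was lower in RpS15 than in RpS3* by 0.68 on the log2 scale (adjusted p = 0.017) and higher in mahj than in RpS15 by 0.72 (adjusted p = 0.022). The first call was lost with the length trend removed (-0.26, adjusted p = 0.41) and without RpS3* replicate 2 (-0.57, adjusted p = 0.13), and the second without mahj replicate 1 (0.41, adjusted p = 0.32) or RpS15 replicate 1 (0.68, adjusted p = 0.11). The mahj level was also above RpS3 (0.61, adjusted p = 0.071), but not without mahj replicate 1 (0.30, adjusted p = 0.51).

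The orders of the other members were not that of rpr. For hid it ran from mahj (57.0 FPKM) through RpS15 (47.2), RpS3* (44.9), WT (40.6) and RpS3 (38.0) to RpS3+puc (31.2), and no neighbours differed. For Drice it ran from RpS3* (66.2 FPKM) to mahj (50.3), and only RpS3 and RpS3+puc differed as neighbours (adjusted p = 0.087). For Dcp-1 it ran from RpS3+puc (64.8 FPKM) to mahj (51.1), and for Diap1 likewise from RpS3+puc (232.7 FPKM) to mahj (190.3), in both with no neighbours that differed. Dark was highest in RpS15 (22.0 FPKM) and lowest in RpS3+puc (15.7), and Dronc highest in RpS3* (63.7) and lowest in WT (51.7).

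Because the inducers act by binding Diap1, their level was also read against that of Diap1 within each library, as a description. In WT, rpr was 10.2% ± 2.14 (SD, n = 8) of the Diap1 level. It was 11.6% in RpS3, 12.2% in RpS15, 18.8% in RpS3*, 21.7% in mahj and 6.30% in RpS3+puc, as means of 2, 2, 2, 2 and 3 libraries. Both RpS3* libraries (18.8% ± 5.41, SD, n = 2) and both mahj libraries (16.0% and 27.3%) stood above the highest WT library (13.8%), and all RpS3+puc libraries (5.90% to 6.59%) below the lowest (7.17%). The level of hid was 19.9% of that of Diap1 in WT, 30.0% in mahj and 13.3% in RpS3+puc. The ratio of Drice to Dcp-1 was 0.80 in RpS3+puc, where all 3 libraries (0.78 to 0.83) lay below the WT range of 0.88 to 1.27. It was 1.05 in RpS3, 1.14 in RpS3*, 1.02 in RpS15 and 0.99 in mahj, all with libraries inside that range. The RpS3+puc ratio restates the Drice and Dcp-1 differences from WT given above. That of Dcp-1 was gone with the length trend removed (-0.03).

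**Figure D4:**
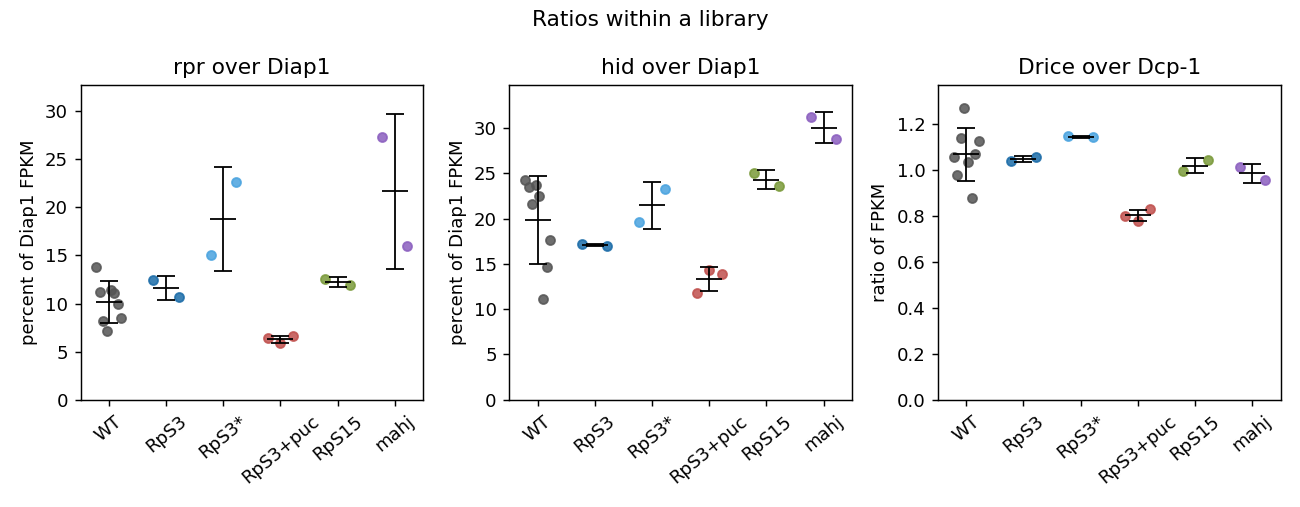
Ratios of FPKM within each library (vertical axes) by genotype: rpr and hid as a percentage of Diap1, and Drice over Dcp-1. Points are libraries, and bars are the mean ± SD. For rpr over Diap1 the RpS3+puc libraries (5.90% to 6.59%) lie below and the RpS3* and mahj libraries (up to 27.3%) above all WT libraries.

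Across the 19 libraries, the members followed each other only in part. Pearson's r between rpr and hid was 0.50, between rpr and Diap1 -0.48 and between rpr and Drice 0.04, and the largest in size was between hid and Dcp-1 at -0.74. These values are descriptions over libraries that share genotypes. The genes most like rpr, by Pearson's r among 8405 genes, were Sp212 (0.89, at a mean of only 0.590 FPKM), Piezo (0.85), which encodes a mechanically gated ion channel, and orion (0.83), which encodes a chemokine-like signal. Sp212 passed the filter only through RpS3* and mahj libraries, where rpr was also high. Those most like Drice were CG6805 (0.84), CG5282 (0.84) and sotv (0.78), a heparan sulphate polymerase gene, and those most like Dcp-1 were CG31249 (0.90), alien (0.88), a COP9 signalosome subunit, and CG17272 (0.87).

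Of 38 further cell death genes listed by role, 36 were matched. These comprised the Bcl-2 family, further IAP proteins and their regulators, further caspases and their adaptors, the TNF ligand and its receptors, upstream factors, and genes of execution and clearance. In RpS3 against WT, 1 of the 30 tested was called higher and 1 lower, where 14.4% and 4.17% of all genes were, with a median log2 difference of 0.00 against 0.09 over all genes. The gene counted as higher was the caspase gene Damm, at 1.53 and 1.61 FPKM against 0.186 to 0.685 in WT. Damm passed the filter only through the RpS3 libraries, so it was selected by the values tested and its call is not used. The transcription factor foxo was lower (-0.31, adjusted p = 0.069).

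In RpS3*, 3 of 29 were called higher and 0 lower, where 16.5% and 6.33% of all genes were, with a median of 0.04 against 0.07 over all genes. They were egr, the only TNF ligand of the fly, at 6.73 and 6.98 FPKM against a WT range of 3.99 to 6.27 (0.43, adjusted p = 0.050), Det (0.39, adjusted p = 0.064) and p53 (0.34, adjusted p = 0.081). In RpS15, 7 of 30 were called higher and 1 lower, where 12.1% and 8.99% of all genes were, with a median of 0.10 against 0.03. Damm, at 2.29 and 2.39 FPKM, was among those counted as higher, but again passed the filter only through the mutant, so its call is not used. Next in size were egr (0.63, adjusted p = 0.014) and the mitochondrial protease gene HtrA2 (0.36, adjusted p = 0.042).

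In mahj, 4 of 29 were called higher and 1 lower, where 9.33% and 6.7% of all genes were, with a median of 0.02 against -0.01 over all genes. egr stood at 9.11 and 12.9 FPKM, above every WT library (1.02, adjusted p = 6.4e-04). The caspase gene Strica was lower (-0.79, adjusted p = 0.0090), at 1.19 and 1.43 FPKM against 2.28 to 4.60, and the ecdysone receptor gene EcR higher (0.46, adjusted p = 0.073).

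In RpS3+puc against RpS3, 5 of 30 were called higher and 9 lower, where 21.5% and 25.1% of all genes were, with a median of -0.04 against -0.02 over all genes. The largest was puc itself (3.66, adjusted p = 3.4e-06), the transgene. Bruce, a very large BIR-domain protein with a ubiquitin-conjugating domain, was lower (-0.93, adjusted p = 0.0024), at 7.93 to 10.9 FPKM against 18.7 and 19.9. Damm was among those counted as lower, but it passed the filter through the RpS3 libraries, so its call is not used. Against WT, 7 of 29 were called higher and 10 lower, where 37.4% and 24.9% of all genes were, with a median of -0.01 against 0.08. Behind puc (3.56, adjusted p = 2.1e-10), Bruce (-0.70, adjusted p = 8.5e-04) and the JNK kinase gene hep (-0.68, adjusted p = 5.7e-04) were lower. Values in the RpS3+puc libraries fell with transcript length (slopes of -0.29 to -0.15). With the length trend removed, 9 of the list were called higher and 9 lower against RpS3, where 41.8% of all genes were called. Against WT it was 4 higher and 10 lower, where 44.2% of all genes were called. The Bruce and hep estimates of that fit are not given here, so the part of transcript length in them is not shown.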

How the data were processed

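Total RNA of whole discs was sequenced with the TruSeq protocol, and 25 samples formed 19 libraries, 6 of them with 2 runs pooled. For WT1 the values are headed by the first run only, while the sample description says that both runs were pooled. The authors deposited FPKM values per gene. The submitters' processing notes name BWA 0.6.2 and the dm3 build; the counter and annotation are not given in the sources used here. Across the libraries 97.2% to 97.8% of low values of 6779 single-transcript genes were whole multiples of 1 read (tolerance 0.02), which gives the depth; intervals and counts cover counting error only. Values were tested as log2(FPKM + 1), with a filter of 1 FPKM in 2 libraries, in limma 3.58.1 (statmod 1.5.0, R 4.3.3; trend and robust) over all genes, after tests on simulated data. Alternatives were thresholds, pseudocount (0.1), filter, scaling, transcript length, block, reference libraries and left-out replicates. Positions come from BDGP6.54 (Ensembl 115), which is not the build of the files. The members and lists were chosen with earlier results of these data known. Named were all 9 members, up to 3 called genes of the wider list per comparison by size, and, for members called in 2 or more of the 6 comparisons, the 3 genes highest in r. Cyt-c-p, br, ap, wg and wupA were not matched. No sequence is shown and no promoter motif was counted.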

Additional observations from a re-analysis of the deposited data

Results flagged for a closer look

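Dark in WT replicate 7, at 13.4 FPKM, lay far below the other 7 WT libraries by Dixon's test at 95%. Such a test marks about 1 in 20 groups by chance. It was run on the WT libraries, the only group of 4 or more.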

How the results depend on the processing

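With 2 or 3 libraries a mutant, the counts of members called moved with the settings, as did the share of all genes called (in parentheses). RpS3 against WT went from 0 (18.6%) to 1 with the length trend removed (16.7%), 3 with the replicate block (50.4%) and 2 without WT6 and WT7 (43.5%). RpS3* went from 1 (22.8%) to 2 without WT6 and WT7 (46%). Since WT6 and WT7 are the WT libraries lowest in hid, a hid call made without them follows in part from their removal and is not used. Calls of Dronc or Dark gained without them are not used either, since WT7 is the WT library lowest in both. RpS15 went from 1 (21.1%) to 2 with no filter (13.4%), where skl was added on 6 reads, and to 2 with the replicate block (28.4%). mahj went from 2 (16%) to 1 at an adjusted p under 0.05 (11.6%) or against the FRT82 ubi-GFP libraries (12.6%), 5 in the fit of all 19 libraries (22.7%) or with the replicate block (36.1%), and 4 against WT libraries with as many runs (32.1%) or without WT6 and WT7 (23.6%). RpS3+puc against RpS3 went from 3 (46.6%) to 5 with the replicate block (45.3%), all of them lower, and against WT from 4 (62.3%) to 2 at an adjusted p under 0.05 (54.3%) or with the median of ratios (62%) and to 1 against the FRT82 ubi-GFP libraries (50.2%). With a replicate left out, the count stayed at 0 for RpS3 and ran from 0 to 1 for RpS3* and RpS15, 0 to 3 for mahj, 1 to 4 and 2 to 5 for RpS3+puc against RpS3 and WT, and 22 to 37 over the pairs of genotypes (35 with all libraries), the 22 without mahj replicate 1. Without RpS3+puc replicate 2 or 3 the Diap1 and Dcp-1 calls against WT were lost. The count between the WT stocks was 0 throughout.

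With the length trend removed, 5 estimates that were called with or without this step changed sign: Dark (0.25, from -0.05) and Dcp-1 (-0.030, from 0.15) in RpS3+puc against WT, the latter also in the fit of all libraries (-0.030), and Dark in RpS15 (-0.035, from 0.46) and mahj (-0.035, from 0.29) against RpS3+puc. Dark has the longest transcript of the set. A further 3 estimates that were called neither way also changed sign. The cause of the other changes was not tested. Same-numbered libraries did not deviate together (correlations from -0.25 to 0.26), so replicate numbers do not pair the samples and the block is given here only.

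Of the estimates of single members, 1399 kept their side of the threshold without a called value turning (40 of them, called in neither setting, changed sign), 157 lost a call and 35 gained one. From the pairs of genotypes only those called with all libraries entered this tally, so they could lose a call but not gain one. Many settings left out a library outside the pair, which leaves its estimate unchanged. The rpr calls in RpS3+puc were kept in every setting. Precision is limited by 2 or 3 libraries a mutant, and for grim and skl by read depth.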
